A study of Homo sapiens with 10 samples.

Results

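The mRNAs of 9 nuclear receptor genes were followed in breast cancer cells that carried wild-type, SUMO-deficient or no progesterone receptor (PR): *PGR*, *ESR1*, *NR3C1*, *VDR*, *ESRRG*, *ESRRA*, *RARA*, *RXRA* and *NR2F2*. The genes were chosen by name, with earlier results of these data known. Every probe set that the platform annotation pairs with 1 of these symbols alone was taken. This gave 28 of the 22277 probe sets and 8 of the 11963 genes. No probe set was paired with *NR2F2* in the annotation used, so that gene was not analysed here. Each gene was led by its probe set with the highest mean. All 8 passed the filter on low values (at least log2 6 on the highest array), as did 10911 genes in all, and the 8 lead probe sets stayed above log2 6 on every array.

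RNA was measured on Affymetrix Human Genome U133 arrays (A set, version 2.0), 1 for each of 10 conditions, in T47D-Y cells, a PR-null line derived from the luminal breast cancer line T47D. Cells of the iEV line carried an inducible empty vector, iWT cells an inducible vector for wild-type PR-B, and iKR cells one for the K388R receptor, in which the lysine that takes the small protein modifier SUMO was replaced. All were kept in G418 and hygromycin B, were serum starved, and received the dimerizer AP21967, which induces the vector, or its ethanol vehicle for 2 days. The iWT and iKR lines were measured with and without AP21967, each with R5020, a synthetic progestin, or ethanol for 6 h, and iEV with and without AP21967 but without R5020. The study's methods give 1 nM AP21967 and 10 nM R5020, while the sample labels write the doses in a notation that can also be read as 10 times as much. The labels give 1 replicate per condition. The study describes the inducible lines as clonal, so the receptor and the clone that carries it cannot be told apart.

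Nuclear receptors are transcription factors that most often switch on by binding a small lipophilic ligand. Steroid receptors (PR, the estrogen receptor ESR1 and the glucocorticoid receptor NR3C1) bind DNA as pairs of the same receptor, whereas the vitamin D receptor VDR and the retinoic acid receptor RARA pair with RXRA, a shared partner of many receptors. The estrogen-related receptors ESRRA and ESRRG are orphan receptors that bind estrogen response elements and related sites without a known steroid hormone and act on genes of energy metabolism. ESR1 drives the growth of luminal breast cancer cells and *PGR* is a classical target of it.

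With AP21967 present, R5020 was followed by more *ESRRG* and *VDR* mRNA and by less *ESR1* and *RXRA* mRNA in both receptor lines. Signals are on the log2 scale of the deposited Robust Multi-array Average (RMA) values, where a difference of 1 is a doubling, and a comparison of 2 arrays has no replicate check. The adjusted p values are from limma, fitted across all 10911 genes with lines standing in as replicates of a shared response and Benjamini-Hochberg adjustment, and a value under 0.05 is a call. For R5020 with AP21967, 4 of the 8 genes were called, where 11.5% of all genes were. Because the genes were chosen with earlier results known, the excess over that share is no test of the group. The call of *ESR1* rests on its lead probe set alone. With the mean of its 9 probe sets the value was -0.12 (adjusted p = 0.31). The other members, *PGR*, *NR3C1*, *ESRRA* and *RARA*, were not called. In these bulk samples a change in the share of cells that express a gene and a change of RNA per cell cannot be told apart.

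Array medians lay between log2 8.12 and 8.15. Of the luminal epithelial markers, 7 of 7 reached log2 6, at 9.85 to 15.04, and the sum of their log2 values ranged from 92.7 to 95.9 over the arrays. Such sums grow with the number of markers. They ranged from 13.5 to 14.1 for 2 of 4 basal markers and from 34.1 to 34.8 for 5 stromal markers. For 2 of 4 leukocyte markers they ranged from 13.1 to 13.3 and for 3 endothelial markers from 19.5 to 19.8. Single values lay at 5.71 to 8.16, 4.08 to 9.77, 6.02 to 7.18 and 5.05 to 7.72 in that order. The highest stromal value, that of *COL1A1*, was thus near the lowest luminal value. The stromal markers *COL3A1* and *LUM* and the endothelial marker *CDH5* stayed below log2 6 on every array. None of the basal, stromal, leukocyte or endothelial markers was called in any fit.

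The promoters of the members were searched for the core of the element that PR and other steroid receptors bind. The 3 windows that held it, of *ESR1*, *RXRA* and *ESRRG*, are printed. RefSeq windows (GRCh38.p14) of the 250 bases before each annotated start were searched on both strands for TGTTCT, the 6-base core of hormone response elements. The other motifs were the full progesterone and glucocorticoid response element (GNACA, any 3 bases and then TGTNC), the estrogen response element (GGTCA, any 3 bases and then TGACC), the estrogen-related receptor element (TCAAGGTCA) and the direct repeat bound by RXR pairs (AGGTCA, any 1 base and AGGTCA again). A full element can hold the 6-base core. The 32 windows searched belong to *NR2F2* (2) and to 7 of the 8 measured genes, all but *VDR*. Of these 32 windows, 3 held the core, against 12.4% of all 35116 windows, so the core was not more frequent here than elsewhere. Of the other motifs, 0 were found, against 0.327%, 0.0399%, 0.319% and 0.0171% of all windows. The capitals mark the match, which lies 154 to 149 bases before the start in *ESR1*, 113 to 108 in *RXRA* and, on the reverse strand, 24 to 19 in *ESRRG*.
ESR1, chr6:151656422-151656671, plus strand: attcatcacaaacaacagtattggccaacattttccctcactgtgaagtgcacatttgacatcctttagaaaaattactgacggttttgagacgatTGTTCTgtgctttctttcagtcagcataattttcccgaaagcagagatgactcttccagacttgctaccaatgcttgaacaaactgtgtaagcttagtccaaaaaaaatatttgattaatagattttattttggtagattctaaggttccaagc
RXRA, chr9:134379045-134379294, plus strand: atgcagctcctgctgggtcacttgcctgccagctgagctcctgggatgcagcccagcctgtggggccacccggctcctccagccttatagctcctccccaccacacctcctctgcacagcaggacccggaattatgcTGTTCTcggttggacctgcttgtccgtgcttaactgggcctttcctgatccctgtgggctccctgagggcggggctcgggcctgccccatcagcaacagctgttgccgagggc
ESRRG, chr1:217090569-217090818, minus strand: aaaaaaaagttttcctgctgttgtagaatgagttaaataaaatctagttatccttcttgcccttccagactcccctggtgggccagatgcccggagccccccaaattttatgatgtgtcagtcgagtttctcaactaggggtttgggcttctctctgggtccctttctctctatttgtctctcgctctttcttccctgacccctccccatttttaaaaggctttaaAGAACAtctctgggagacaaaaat
These are 1 of 6 *ESR1* windows, 1 of 2 *RXRA* windows and 1 of 8 *ESRRG* windows. A match describes these letters only, and binding was not measured on these arrays.

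*PGR* (chromosome 11, 101029624 to 101129813) encodes PR itself and so checks the label of iEV against those of the receptor lines. Its only probe set, 208305_at, read 6.25 without and 6.17 with AP21967 in iEV. In iWT it read 11.12 with vehicle, 11.77 with R5020, 11.34 with AP21967 and 11.89 with both. In iKR it read 10.65, 11.43, 12.08 and 11.38 in the same order. No iWT or iKR array overlapped with iEV, and the receptor lines held high *PGR* mRNA without the inducer. iKR minus iWT was not called (-0.14, SE 0.19, adjusted p = 0.74), so *PGR* does not check which receptor a line carried. Whether the mRNA came from the vector or from the endogenous gene was not tested. Over the 6 arrays without R5020, iWT exceeded iEV by 5.01 (SE 0.30, adjusted p = 4.0e-05), which is 32.3-fold, and iKR exceeded iEV by 5.15 (SE 0.30, adjusted p = 2.4e-05), or 35.6-fold. In those comparisons 23.8% and 25.7% of all genes were called, and 4 and 3 of the 8 receptor genes.

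AP21967 alone was accompanied by *PGR* differences of 0.22 in iWT and 1.43 in iKR and of -0.08 in iEV. *PGR* was thereby the 1 gene of 10911 (0.00917%) past 2.0 fold with AP21967 alone in iKR. The shared effect over the 3 lines was 0.52 (SE 0.24, adjusted p = 0.58). None of the 8 genes was called for AP21967 alone by limma, with 0 at an unadjusted p under 0.05. Of all genes 0 (0.0%) were called, while 501 higher and 480 lower had an unadjusted p under 0.05.

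R5020 was accompanied by higher *PGR* signal without AP21967, by 0.65 in iWT and 0.78 in iKR. The shared difference was 0.72 (SE 0.23, unadjusted p = 0.012, adjusted p = 1.00), so it was not called, as was no other member, where 0.00917% of all genes, 1 gene, was called. *PGR* was also the 1 member with an unadjusted p under 0.05. With AP21967, the R5020 difference of *PGR* was 0.55 in iWT and -0.71 in iKR. The average over the lines, -0.08 (SE 0.23, adjusted p = 0.87), therefore describes neither line. Leaving out 1 of the 4 arrays with AP21967 leaves 1 pair for that effect, so the fit returns the single-array difference of the other line (0.55 or -0.71). Its p then takes the spread from the arrays without AP21967 and from the limma average over all genes, and is not a test over replicates. The value without AP21967 stayed 0.72 in those fits and was then called (adjusted p = 0.000563). In iKR with AP21967, the vehicle array was the highest of all 10 arrays for this gene, at 12.08.

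**Figure D1:**
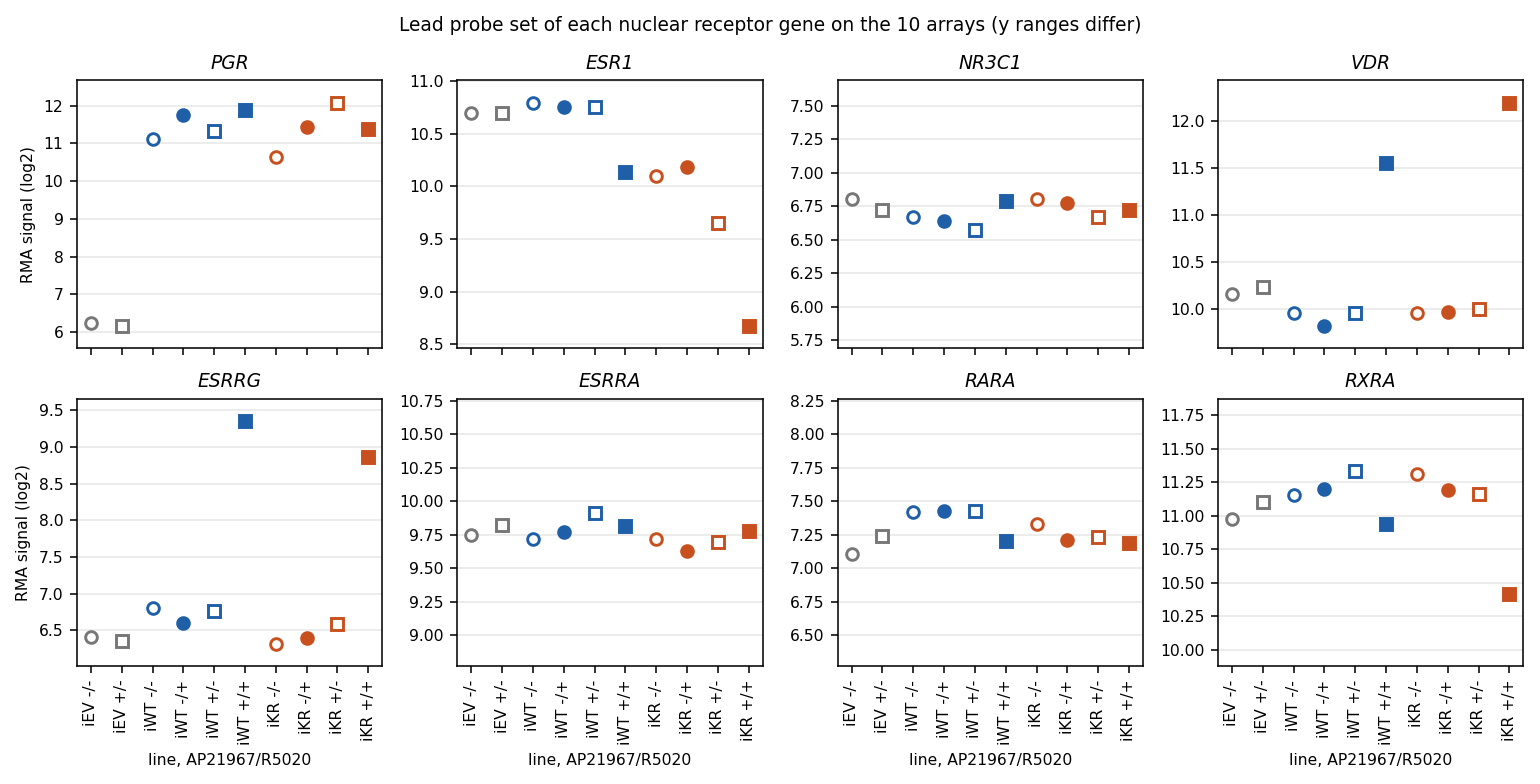
RMA signal (log2, y axis) of the lead probe set of 8 nuclear receptor genes on the 10 arrays (x axis: line, then AP21967 and R5020 as present or absent), with 1 point per array, squares for AP21967 and filled points for R5020. *VDR* and *ESRRG* stand above all other arrays only on the 2 arrays with both agents, *ESR1* is lowest at 8.68 in iKR with both, and *PGR* lies near 6.2 in iEV. The y ranges differ between genes.

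*ESR1* (chromosome 6, 151656672 to 152129619), the estrogen receptor alpha gene, fell with R5020 when AP21967 was present. Its lead probe set, 205225_at, read 10.70 on both iEV arrays. In iWT it read 10.80 with vehicle, 10.76 with R5020 and 10.75 with AP21967, and 10.14 with both agents. In iKR it read 10.10, 10.19, 9.65 and 8.68 in that order. The array with both agents was thus the lowest in each receptor line, and every iKR array but 1 lay below every iWT and iEV array, the exception being the R5020 array at 10.19, above iWT with both agents. R5020 minus vehicle with AP21967 was -0.61 in iWT and -0.97 in iKR, with a shared value of -0.79 (SE 0.10, adjusted p = 0.0016), which is 1.73-fold lower. Without AP21967 the shared value was 0.03 (SE 0.10).

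The difference between the R5020 effects with and without AP21967 was -0.82 for *ESR1* (SE 0.14, adjusted p = 0.025), 1 of 3 receptor genes called for it, where 2.1% of all genes were. That call was lost without either iKR array that had no AP21967 (adjusted p = 0.098) and with cyclic loess between arrays (adjusted p = 0.068). AP21967 alone went with -0.44 in iKR, -0.05 in iWT and -0.0002 in iEV.

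The other 8 *ESR1* probe sets had lower means, from 8.49 to 4.67, and did not follow the lead set in the R5020 comparison. With AP21967 present, R5020 minus vehicle of these sets was -0.20 to 0.20 on the iWT arrays and -0.30 to 0.17 on the iKR arrays, and none of the 7 that passed the level filter was called when each probe set was tested as its own feature. With the mean of all 9 probe sets in place of the lead set, the value for R5020 with AP21967 was -0.12 (adjusted p = 0.31) and that for the inducer-dependent response -0.05 (adjusted p = 0.89). The probe set nearest to the lead set in direction was 215552_s_at, at -0.11 in iWT and -0.30 in iKR. On the array with both agents it read 7.30 in iWT and 6.87 in iKR, its lowest value in each line.

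The lower *ESR1* signal of iKR was seen in more probe sets than the R5020 response. iKR minus iWT was -0.70 with vehicle, -0.57 with R5020, -1.10 with AP21967 and -1.46 with both agents. The fitted difference was -0.96 (SE 0.13, adjusted p = 0.0045), or 1.94-fold lower, and 2 of the 8 receptor genes were called in this comparison, *ESR1* and *ESRRG*, where 6.87% of all genes were. With the mean of all 9 probe sets the difference was -0.25 (adjusted p = 0.0136). Tested separately, 4 dimmer *ESR1* probe sets were also lower in iKR, with differences of -0.36 for 215552_s_at, -0.28 for 211233_x_at, -0.27 for 211234_x_at and -0.24 for 217190_x_at (adjusted p = 0.0057, 0.013, 0.032 and 0.034). iKR minus iEV was -0.82 (SE 0.10, adjusted p = 0.0011), or -0.23 (adjusted p = 0.0389) with the mean of the 9 probe sets, whereas iWT minus iEV was 0.07 (SE 0.10, adjusted p = 0.68).

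**Figure D2:**
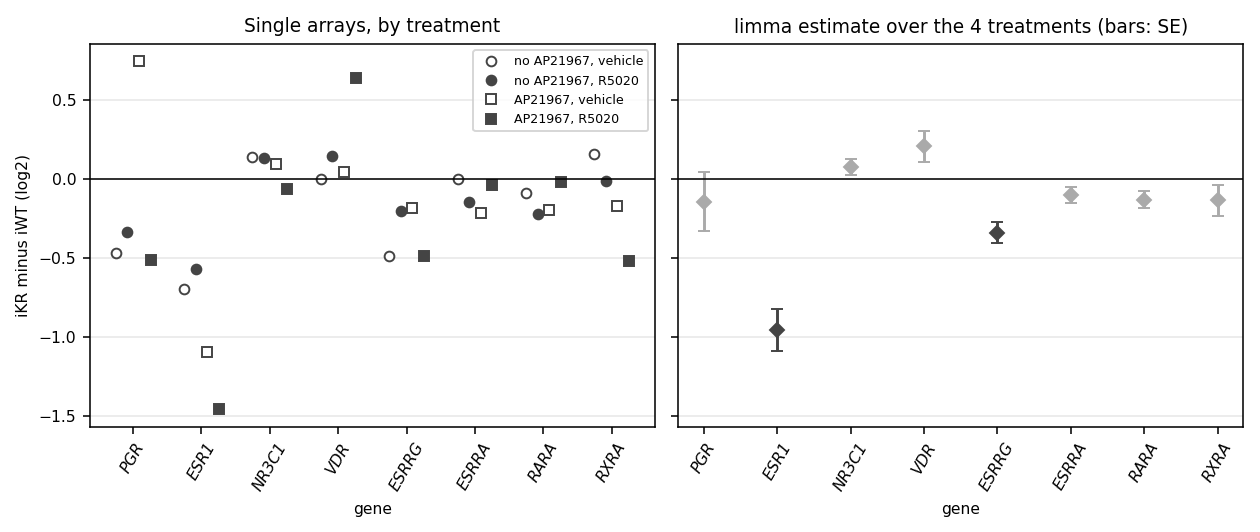
iKR minus iWT (log2, y axis) for the lead probe sets of 8 receptor genes (x axis), at left for each of the 4 treatments as single arrays and at right as the limma estimate with its SE, dark where the adjusted p is under 0.05. *ESR1* was lower in iKR under all 4 treatments, from -0.57 to -1.46, and *ESRRG* from -0.18 to -0.49.

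*NR3C1* (chromosome 5, 143277931 to 143435512), the glucocorticoid receptor gene, had nearly level signal. Its lead probe set, 201866_s_at, ranged from 6.57 in iWT with AP21967 to 6.81 in iKR with vehicle, with a median of 6.72. The R5020 differences with AP21967 were 0.21 in iWT and 0.05 in iKR, and the shared value was 0.13 (SE 0.08, adjusted p = 0.33). It was called in none of the 7 comparisons. The other 3 probe sets were dim, with means of 6.03, 5.20 and 4.54, and 2 of them stayed below log2 6 on every array. The lead set was itself low, although its SE of 0.08 was not larger than those of the brighter members.

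*VDR* (chromosome 12, 47841537 to 47904994), the receptor for the active form of vitamin D, rose with R5020 when AP21967 was present. Its lead probe set, 204254_s_at, read 10.16 and 10.23 in iEV without and with AP21967. In iWT it read 9.95 with vehicle, 9.82 with R5020, 9.95 with AP21967 and 11.55 with both agents. In iKR it read 9.95, 9.96, 9.99 and 12.19. The 2 arrays with both agents stood clear of the other 8, which lay within 9.82 to 10.23. The difference was 1.60 in iWT (3.04-fold) and 2.20 in iKR (4.59-fold), and the shared value was 1.90 (SE 0.13, adjusted p = 6.2e-05). Without AP21967 it was -0.06 (SE 0.13), and the inducer-dependent response was 1.96 (SE 0.18, adjusted p = 0.0010).

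The response of *VDR* was seen in each of its 4 probe sets. Tested separately, the other sets rose with R5020 and AP21967 by 2.26 (204255_s_at, adjusted p = 0.00011), 1.35 (204253_s_at, adjusted p = 0.0016) and 0.53 (213692_s_at, adjusted p = 0.016). In each of the 4 sets the difference was larger in iKR than in iWT, by 0.60, 0.80, 0.85 and 0.44, a comparison of 4 arrays that share their RNA across probe sets and has no test. The probe set 204255_s_at went from 8.97 to 10.83 in iWT and from 8.93 to 11.59 in iKR. For the lead set the difference between the lines passed 1.5 fold, as it did for 2.5% of all genes, and *PGR* was the other receptor gene past it, in the opposite direction (-1.26).

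*VDR* was also lower in both receptor lines than in iEV. The difference from iEV was -0.24 in iWT (SE 0.06, adjusted p = 0.018) and -0.22 in iKR (SE 0.06, adjusted p = 0.024), and both comparisons share the iEV arrays. The iWT call was lost without iEV with AP21967, iWT with AP21967 or iWT with vehicle (adjusted p = 0.0852, 0.175 and 0.0905) and with the mean of the 4 probe sets (-0.17, adjusted p = 0.0636). The iKR call was lost without any 1 of its 4 arrays (iEV or iKR, with vehicle or AP21967; adjusted p = 0.051 to 0.13).

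*RXRA* (chromosome 9, 134326455 to 134440585), the partner of VDR and RARA, fell with R5020 when AP21967 was present. The lead probe set, 202449_s_at, read 10.98 and 11.11 in iEV. In iWT it read 11.16 with vehicle, 11.20 with R5020, 11.33 with AP21967 and 10.94 with both agents, and in iKR 11.31, 11.19, 11.16 and 10.42. The array with both agents was the lowest of its line in each case, although the iWT value lay just below that of iEV with vehicle. The difference was -0.39 in iWT and -0.75 in iKR, with a shared value of -0.57 (SE 0.10, adjusted p = 0.0079). The second probe set, 202426_s_at, also fell, with differences of -0.66 in iWT and -0.44 in iKR (shared value -0.55, adjusted p = 0.0049). The difference between the R5020 effects with and without AP21967 was -0.53 (SE 0.14, adjusted p = 0.10) for the lead set and was not called. Without either iWT array with AP21967 it was -0.71 and was called (adjusted p = 0.0014), with the effect under AP21967 then resting on the iKR pair alone and the spread on the other arrays.

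*RARA* (chromosome 17, 40309180 to 40357643) encodes the retinoic acid receptor alpha. Its lead probe set, 216300_x_at, ranged from 7.11 in iEV with vehicle to 7.43 in iWT with R5020 or with AP21967, with a median of 7.24. The R5020 differences with AP21967 were -0.22 in iWT and -0.04 in iKR (shared value -0.13, SE 0.08, adjusted p = 0.35). The signal was higher in iWT than in iEV by 0.25 (SE 0.07, adjusted p = 0.035). This call was lost without iEV with vehicle, iWT with AP21967 or iWT with vehicle (adjusted p = 0.199, 0.176 and 0.185). None of the other 3 probe sets was called for R5020 with AP21967, with differences from -0.30 to -0.10 for iWT and from -0.21 to 0.03 for iKR.

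*ESRRG* (chromosome 1, 216503246 to 217137702), which encodes the estrogen-related receptor gamma, had the largest R5020 response of the 8 genes. Its lead probe set, 209966_x_at, read 6.40 and 6.36 in iEV. In iWT it read 6.80 with vehicle, 6.60 with R5020, 6.76 with AP21967 and 9.35 with both agents. In iKR it read 6.31, 6.39, 6.58 and 8.87. The 2 arrays with both agents were separate from the other 8, none of which passed 6.80. The difference was 2.59 in iWT (6.02-fold) and 2.29 in iKR (4.89-fold), and the shared value was 2.44 (SE 0.10, adjusted p = 3.5e-06). The response without AP21967 was -0.06 (SE 0.10), and the inducer-dependent response was 2.50 (SE 0.14, adjusted p = 6.9e-05).

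The second *ESRRG* probe set, 207981_s_at, gave a larger difference. It read 4.96 and 5.05 in iEV, and 5.65, 5.64, 6.11 and 9.66 in iWT with vehicle, R5020, AP21967 and both agents. In iKR the values were 5.15, 5.28, 5.49 and 9.16. R5020 with AP21967 was followed by a rise of 3.55 in iWT and 3.67 in iKR (shared value 3.61, SE 0.08, adjusted p = 2.5e-07). The lead set has the suffix _x_at, which marks probes that can also pair with other transcripts, and the dimmer set lay below log2 6 on 7 arrays. *ESRRG* and *VDR* were the members past 2.0 fold with R5020 and AP21967 in either line, as 0.614% of all genes were in iWT and 1.48% in iKR. Past 1.5 fold, *ESR1* joined them in iWT, where 2.61% of all genes were past it, and *ESR1*, *RXRA* and *PGR* in iKR, where 6.19% were. Without AP21967, no member passed 2.0 fold with R5020 in iWT or iKR (0.0275% and 0.00917% of all genes), and *PGR* passed 1.5 fold in both (0.11% and 0.0825%). With AP21967 alone, *PGR* in iKR was the 1 member past 1.5 fold, where the shares of all genes were 0.11% in iKR, 0.0825% in iWT and 0.0367% in iEV.

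*ESRRG* differed between lines as well. iKR minus iWT was -0.49, -0.21, -0.18 and -0.49 with vehicle, R5020, AP21967 and both (fitted value -0.34, SE 0.07, adjusted p = 0.022). In the second probe set the fitted value was -0.49 (SE 0.06, adjusted p = 0.0023). iWT exceeded iEV by 0.40 in the lead set (SE 0.08, adjusted p = 0.012) and by 0.87 in the second (SE 0.09, adjusted p = 0.00071). The second set read 4.96 and 5.05 in iEV and 5.65 and 6.11 in iWT on these arrays, near or below log2 6. For the lead set, the call against iWT was lost without the vehicle array of either line (-0.29, adjusted p = 0.13), and that of iWT against iEV was lost without iEV with AP21967 (adjusted p = 0.071) or iWT with vehicle (adjusted p = 0.12).

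*ESRRA* (chromosome 11, 64305524 to 64316743), the related receptor alpha, was level. Its lead probe set, 1487_at, ranged from 9.63 in iKR with R5020 to 9.91 in iWT with AP21967, with a median of 9.76. The R5020 differences with AP21967 were -0.10 in iWT and 0.08 in iKR, and the shared value was -0.01 (SE 0.08, adjusted p = 0.97). The second probe set, 203193_at, ranged from 8.19 to 8.43. *ESRRA* was called in none of the 7 comparisons.

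**Figure D3:**
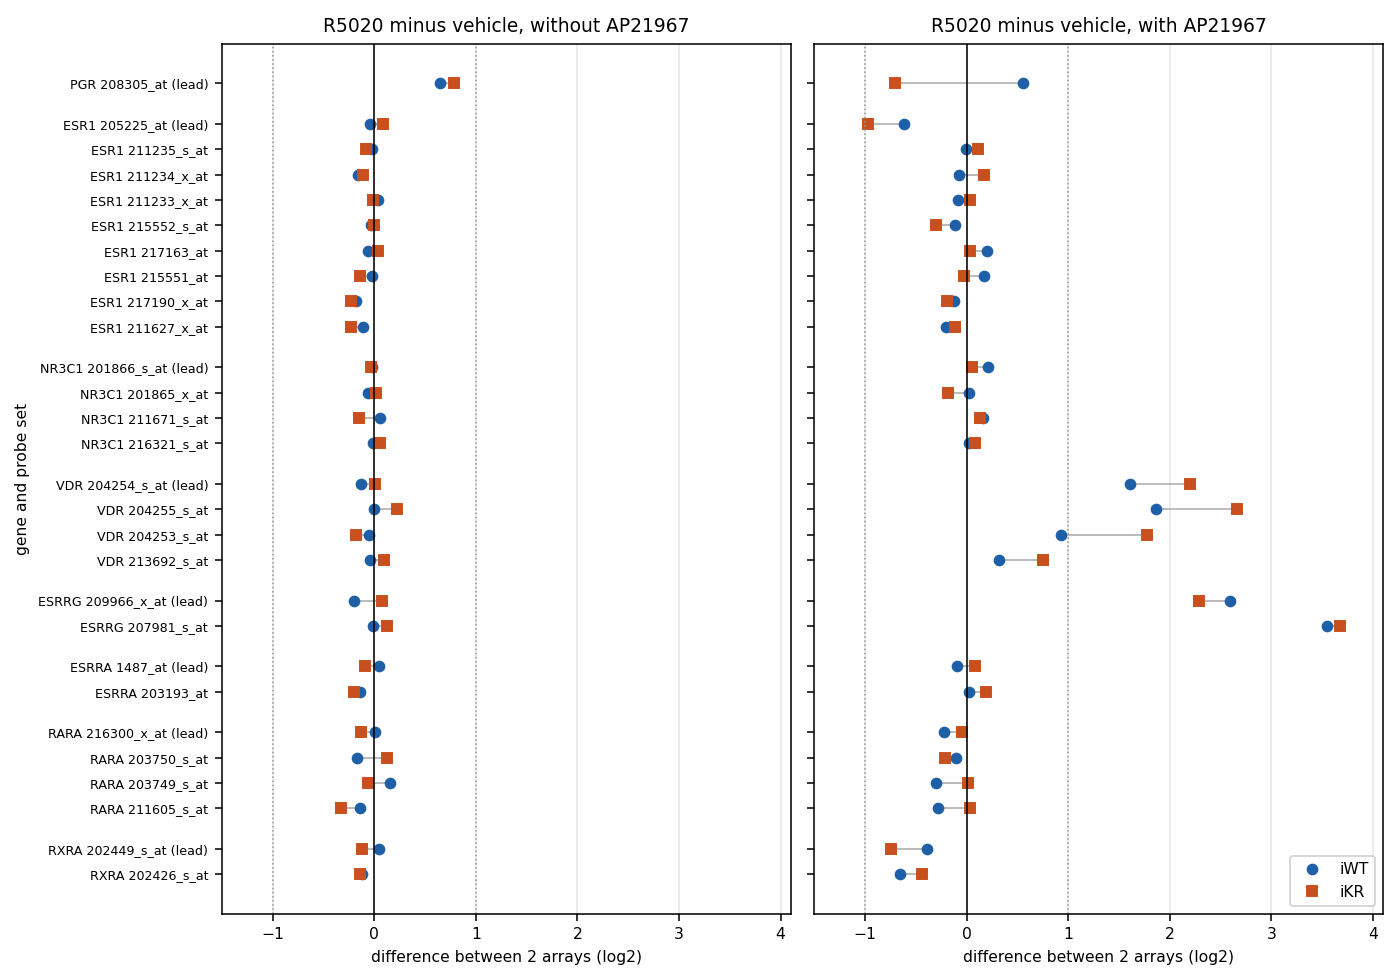
R5020 minus vehicle (log2 difference between 2 arrays, x axis) for the 28 probe sets of 8 receptor genes (y axis), without AP21967 at left and with AP21967 at right, in iWT (circles) and iKR (squares); dotted lines mark 2.0 fold. Without AP21967 the *PGR* points lie farthest from 0, at 0.65 and 0.78, and with AP21967 the *VDR* and *ESRRG* sets lie to the right of 0, up to 3.67, while the *ESR1* and *RXRA* lead sets lie to the left.

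**Figure D4:**
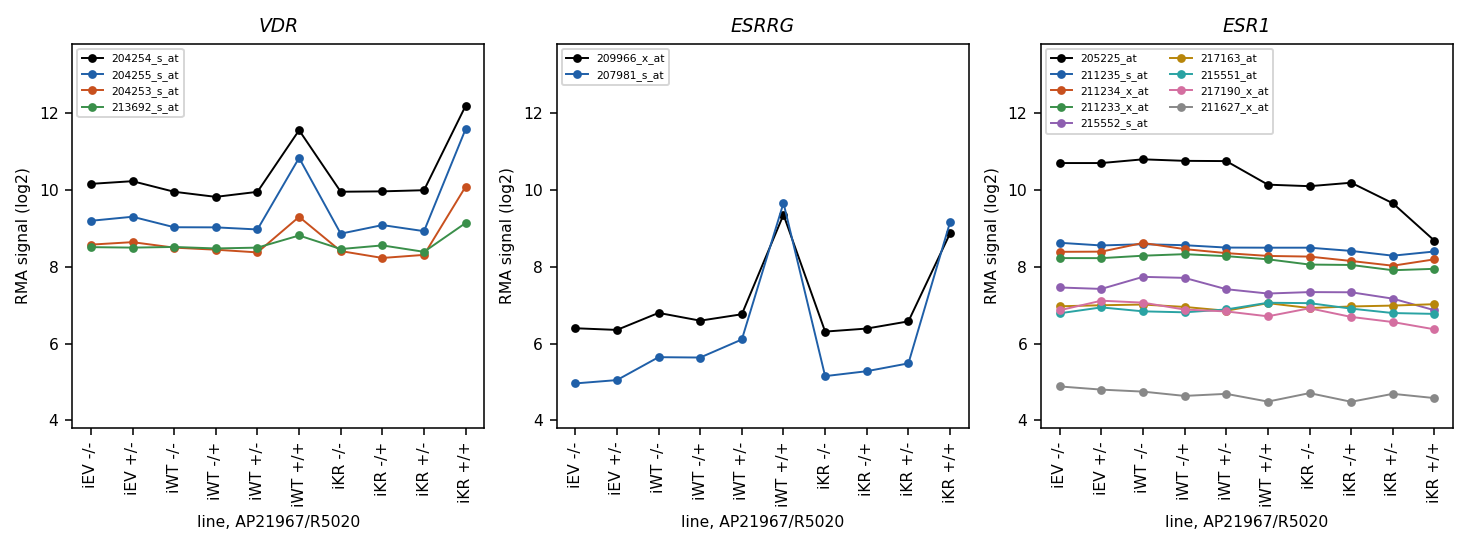
RMA signal (log2, y axis) of every probe set of *VDR*, *ESRRG* and *ESR1* on the 10 arrays (x axis: line, then AP21967 and R5020 as present or absent); lines join the arrays of 1 probe set only to guide the eye. All 4 *VDR* and both *ESRRG* sets peak on the 2 arrays with both agents, whereas of the 9 *ESR1* sets the lead set has the widest range (2.12).

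Of the other 39 human nuclear receptor genes, 31 had a probe set and 29 passed the level filter. With R5020 and AP21967, 0 were called higher and 4 lower, namely *NR2F1*, *RARG*, *PPARG* and *NR1D2*, where 11.5% of all genes were called in either direction, and the median difference was -0.02, against 0.01 over all genes. *NR2F1*, which encodes the orphan receptor COUP-TFI, fell by 0.66 (SE 0.08, adjusted p = 0.0013). Its signal went from 6.57 to 5.96 in iWT and from 5.99 to 5.28 in iKR. All but the first of these values lay below log2 6, so the fall was read at low signal. *RARG*, the retinoic acid receptor gamma gene, fell by 0.49 (adjusted p = 0.0088), *PPARG*, a fatty acid sensor of adipocytes, by 0.38 (adjusted p = 0.020) and *NR1D2*, a repressor of the circadian clock, by 0.35 (adjusted p = 0.046). Each was lower in both lines. For *NR1D2* in iWT, the R5020 difference was -0.25 with and -0.26 without AP21967, and AP21967 alone went with -0.31. In iKR these values were -0.46, 0.01 and 0.03. None of the 29 was called by limma for the inducer-dependent response, for R5020 without AP21967 or for AP21967 alone, and 5, 3 and 4 of them had an unadjusted p under 0.05, as did 14.8%, 3.95% and 8.99% of all genes.

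Between lines, *NR2F1* read 7.87 and 7.63 in iEV and no more than 6.70 in the receptor lines. Its difference from iEV was -1.12 in iWT (adjusted p = 2.3e-05) and -1.67 in iKR (adjusted p = 2.6e-06), and iKR minus iWT was -0.55 (adjusted p = 0.0012). *RORA*, a clock-related orphan receptor gene, was higher than iEV by 0.82 in iWT and 0.94 in iKR (adjusted p = 0.00018 and 8.3e-05). *PPARD* and *RXRB* were higher than iEV, and *NR1H3*, the oxysterol receptor LXR alpha, was lower, in both receptor lines, by 0.21 to 0.37 in size. Against iEV, *PPARG* and *RARG* were called higher and *ESR2*, the estrogen receptor beta gene, lower in iKR. *NR4A2* was higher in iKR than in iWT (0.23, adjusted p = 0.035). Of the 29 tested, 3 were called higher and 2 lower in iWT against iEV, where 23.8% of all genes were called. In iKR against iEV, 5 were called higher and 3 lower, where 25.7% of all genes were. In iKR against iWT, 1 was called higher and 1 lower, where 6.87% of all genes were.

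Genes that the receptors act on were counted in lists chosen for ESR1, vitamin D and retinoid signaling. Of 17 tested estrogen receptor targets, R5020 with AP21967 called 3 higher (*CA12*, *CCND1*, *CXCL12*) and 2 lower (*MYB*, *XBP1*), where 11.5% of all genes were called, with a median of 0.03. *CA12*, a carbonic anhydrase, read 9.89 and 10.92 in iWT with AP21967 without and with R5020, and 9.18 and 11.01 in iKR (shared value 1.43, SE 0.16, adjusted p = 0.00087). *CCND1*, which encodes the G1 cyclin D1, differed by 1.05 in iWT against 0.42 in iKR (adjusted p = 0.0083). *MYB*, a proto-oncogene, differed by -0.76 in both lines (adjusted p = 0.00065). *XBP1*, a factor of the secretory pathway, differed by -0.38 and -0.90 (adjusted p = 0.0087). In iKR against iWT, *AGR2*, *CTSD*, *STC2* and *TFF3* were called higher and 0 lower, where 6.87% of all genes were called.

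Of 8 tested vitamin D targets and metabolic genes, 1 was called with R5020 and AP21967, *CYP27B1*, the enzyme that makes the active hormone, where 11.5% of all genes were called, so 1 of 8 is near that share. *CYP27B1* read 7.46 and 8.08 in iWT with AP21967 without and with R5020, and 7.73 and 8.70 in iKR. The shared value was 0.80 (SE 0.10, adjusted p = 0.0013), and the inducer-dependent response was 0.68 (adjusted p = 0.042). *CYP27A1* differed by 0.16 and 0.34 (adjusted p = 0.098), *S100G* by 0.45 and 0.01 (adjusted p = 0.21) and *TRPV6* by -0.21 and -0.05 (adjusted p = 0.36). *CYP24A1*, the classical target that breaks the hormone down, stayed below log2 6 on every array. The median was 0.05 over the 8 genes.

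Of 9 tested retinoid genes, none was called by limma for R5020 with AP21967, where 11.5% of all genes were. Of all genes, 26.8% had an unadjusted p under 0.05, as did 1 of the 9, *CRABP2*. That gene, which encodes a carrier of retinoic acid to its receptors, differed by -0.38 in iWT and -0.20 in iKR (adjusted p = 0.076). *ALDH1A3*, which makes retinoic acid, differed by 0.40 and -0.17, and *CYP26A1*, which degrades it, by 0.21 and 0.01. The median of the 9 genes was 0.05.

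Of the 7 luminal markers, R5020 with AP21967 called 2 lower, *FOXA1* and *GATA3*, and 0 higher, where 11.5% of all genes were called. Both encode transcription factors that work with ESR1. The keratin genes *KRT8*, *KRT18* and *KRT19* were at -0.03, -0.01 and -0.10 and the adhesion genes *CDH1* and *EPCAM* at -0.14 and -0.31, none called. *FOXA1* went from 11.28 to 10.52 in iWT and from 11.11 to 9.85 in iKR (-1.01, SE 0.11, adjusted p = 0.0010). *GATA3* went from 14.17 to 13.86 and from 13.90 to 13.44 (-0.39, SE 0.08, adjusted p = 0.016), and was lower in iKR than in iWT (-0.27, adjusted p = 0.022). Their part in the *ESR1* result was not tested.

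The genes whose signal followed that of a receptor most closely were found by the root mean square difference over the 10 arrays after each gene was centred on its mean. For *VDR*, whose own standard deviation over the arrays was 0.77, they were *MTSS1* (0.14), *PDK4* (0.14) and *SLC39A14* (0.15). For *ESRRG* (standard deviation 1.05) they were *ADGRA2* (0.21), *IL20RA* (0.29) and *F3* (0.30). Each of these 6 genes had its highest signals on the 2 arrays with both agents. For *ESR1* (0.64) they were *ZNF350* (0.21), *RND1* (0.26) and *EFNB2* (0.26), all lowest in iKR with both agents, as *ESR1* was. For *PGR* (2.13) the nearest genes, *IGF1R* (1.37), *ASS1* (1.40) and *S100A8* (1.40), were lower in iEV than in the receptor lines but did not follow *PGR* closely. For *NR3C1* (0.07) they were *NCAM1*, *SS18* and *PLEKHF1* (each 0.04), where the signal hardly varied. These are descriptions over 10 arrays, with no test.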

How the data were processed

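RNA of 10 conditions was hybridized to Affymetrix Human Genome U133 arrays (A set, version 2.0), 1 each. The deposited log2 signals were made by the authors with RMA in R, which corrects background, quantile-normalizes the arrays and summarizes the probes of a set. Of 22277 probe sets, 19070 were paired with 1 gene by the platform annotation, 1043 with several and 2164 with none listed. The probe set with the highest mean represented a gene, and a gene was tested if its highest array was at log2 6.0 or more.

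Linear models were fitted with limma 3.58.1 (R 4.3.3) with a constant prior. The R5020 effects came from 8 iWT and iKR arrays (2 residual, 8.83 total degrees of freedom), AP21967 and the differences from iEV from 6 arrays without R5020 (2 and 7.58), and iKR minus iWT from 8 arrays with treatment as block (3 and 8.09). Lines or treatments stand in as replicates, so a response that differs between lines enters the residual. Most of the total degrees of freedom (6.83, 5.58 and 5.09 in that order) come from the prior over all genes. The p values thus rest only in part on the spread of a gene between these arrays, and a small one does not show that the lines agreed. No fit on all arrays has a line-specific R5020 effect. With 1 array left out, an effect can rest on 1 pair of arrays whose spread is assumed from the others. The models were tested on simulated data with the same shift on every array concerned and independent noise. Such data hold no response that differs between lines, so they cannot show how the calls behave with one. The labels do not say whether arrays came from separate cultures.

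The members and lists were chosen with earlier results of these data known. Named genes were the members, other nuclear receptors called in a fit, up to 4 genes per target list by R5020 difference with AP21967, and the 3 nearest genes by profile; called target genes, markers that changed and *CYP24A1* were added after their values were seen. Alternatives were other filters, probe set rules, normalizations, priors, fold thresholds and leaving out each array. Arrays have no depth, and their number limits the precision. Python 3.11.15, numpy 2.4.6, pandas 2.3.3 and matplotlib 3.10.9 were used.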

Additional observations from a re-analysis of the deposited data

Results flagged for a closer look

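R5020 differences of lead probe sets were compared between the lines with AP21967 and between cells with and without AP21967 in each line, and AP21967 differences without R5020 between iWT and iKR. In 5 of these comparisons, a receptor gene differed one way in 1 condition and the opposite way in the other, with over 1.5 fold between them. With 1 array per condition none of these differences was tested. The R5020 difference of *PGR* with AP21967 was 0.55 in iWT and -0.71 in iKR, so that iKR minus iWT was -1.26. Within iKR, the R5020 difference of *PGR* was 0.78 without and -0.71 with AP21967, a change of -1.49. The R5020 difference of *ESR1* in iKR was 0.09 without and -0.97 with AP21967, a change of -1.06. In iWT it went from -0.20 to 2.59 for *ESRRG*, a change of 2.79, and from -0.13 to 1.60 for *VDR*, a change of 1.74. For *ESR1*, *ESRRG* and *VDR* the values without AP21967 were close to 0, so the opposite sign there is small.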

How the results depend on the processing

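Of 799 fitted values of the 8 receptor genes under other settings, 762 kept their direction or stayed uncalled (41 of these uncalled with another sign), 20 lost a call, 15 gained one and 2 reversed. The reversed values were *PGR* for R5020 with AP21967, 0.55 without either iKR array with AP21967 against -0.08, and it was -0.71 without either iWT array with AP21967. Without _x_at and _s_at probe sets, *PGR*, *ESR1* and *ESRRA* remain of the members, and 7241 genes were tested in place of 10911. The genes called then numbered 804 for R5020 with AP21967 (1253 otherwise) and 1623 for iKR minus iEV (2809). They numbered 453 for iKR minus iWT (750) and 1518 for iWT minus iEV (2602). The inducer-dependent response called 229 genes, 148 with cyclic loess and 351 with an intensity trend in the prior. Past 1.5 fold in place of 2.0 fold, 5 members differed with R5020 and AP21967 in iKR (2 otherwise), and 1, *PGR*, with R5020 alone in iKR and in iWT (0 otherwise). The cause of these differences was not tested, and fewer genes entered the fits without _x_at and _s_at sets.

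Leaving out 1 array at a time, genes called ranged from 1043 to 2214 for R5020 with AP21967, from 1 to 7 for R5020 without it, from 124 to 1528 for the inducer-dependent response, from 0 to 3 for AP21967 alone, from 306 to 1284 for iKR minus iWT, from 1172 to 2455 for iWT minus iEV and from 1554 to 2366 for iKR minus iEV. The highest counts for R5020 with AP21967 (2214) and for the inducer-dependent response (1528) came without either iWT array with AP21967, and the highest for iKR minus iWT (1284) without either array with both agents. Members called ranged from 4 to 5, 0 to 1, 2 to 5, 0 to 0, 1 to 3, 1 to 4 and 2 to 3 in the same order. The calls of *ESRRG* and *VDR* for R5020 with AP21967 and for the inducer-dependent response held under every alternative in which the gene had a value. No paired analysis was possible because every array carries replicate number 1, so a block on replicate number adds nothing to the blocks on line and treatment already in the fits. Low signal, near or below log2 6, limits what can be read from the dimmer *NR3C1* probe sets and from *NR2F1* in iKR. The same holds for the second *ESRRG* probe set outside the arrays with both agents.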
